A study of Mus musculus with 8 samples.

Results

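The genes described here encode mitochondrial ribosomal proteins. They were chosen by symbol: every row whose GENCODE symbol starts with Mrpl or Mrps followed by a digit, without the rows marked -ps as pseudogenes, which gave 78 genes of 54146 rows. Of these, 49 carry an Mrpl symbol (large subunit) and 29 an Mrps symbol (small subunit). They were measured by droplet-based single-cell RNA-seq in mouse ES cells of ICM origin, grown for 2 days on MEF feeders in LIF/2i medium, either untreated (control) or treated with CX-5461, an inhibitor of RNA polymerase I, the enzyme that transcribes nuclear rRNA genes. The labels list 4 samples per condition and give no dose or time of CX-5461, and nothing in the tables ties a cell to 1 of those samples. Each condition thus counted as 1 library, no test between conditions could be run, and every interval below is a 95% interval that covers counting error only.

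Mitochondria carry their own ribosomes, which translate the few proteins encoded by mitochondrial DNA, all of them parts of the respiratory chain and ATP synthase. The rRNAs of the mitochondrial ribosome (mt-Rnr1 and mt-Rnr2) are transcribed inside the organelle by its own polymerase, whereas all of its proteins are encoded in the nucleus, made by cytosolic ribosomes and imported. Some descend from bacterial ribosomal proteins, and others were added in the course of mitochondrial evolution. Since RNA polymerase I makes no mitochondrial rRNA, the comparison asks how messages for the mitochondrial ribosome stood in cells whose nuclear rRNA synthesis was targeted.

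The values come from 2341 control and 3910 CX-5461 cells of ES-like clusters with at least 5000 UMIs (unique molecular identifiers, each marking 1 captured RNA molecule) and at most 10% of UMIs on mitochondrially encoded genes. They held 41375378 and 60201017 UMIs, with a median of 15943 and 14744.5 UMIs per cell. Of these cells, clusters c0, c1 and c3 held 1250, 845 and 246, all from control, and c7, c8 and c9 held 2964, 904 and 42, all from CX-5461, so that library, treatment and cluster cannot be told apart. The median share of UMIs on mitochondrially encoded genes was 1.88% in control and 4.00% in CX-5461 cells, and that on cytosolic ribosomal protein genes was 28.5% and 23.7%. Levels are CPM (counts per 1000000 UMIs of the library, not divided by gene length, since the libraries capture transcript ends), and a log2 ratio is CX-5461 over control. The 12 markers set for ES cells all reached 200 UMIs and summed to 8005 CPM in control and 8627 CPM in CX-5461. Most of that sum was Dppa5a, at 4940 and 5899 CPM. Against the median log2 ratio of all genes tested (at least 200 UMIs over both libraries), 3 of the 12 were higher. For the other 9 the counting interval lay wholly below that median, where 39.5% of all genes tested did so. On library totals 7 of the 12 were higher in CX-5461 and 5 lower, where 72.4% of all genes tested were higher. The lower ones included Pou5f1 at 951 and 756 CPM and Zfp42 at 838 and 445 CPM. The 17 fibroblast markers, of which 6 reached 200 UMIs and none was at 0, summed to 424 and 517 CPM. Of those 6, 5 were higher in CX-5461 on library totals, against the same 72.4%, among them Col1a1 at 2.08 and 9.88 CPM. Lgals1 was lower, at 158 and 113 CPM, as was Acta2, with fewer UMIs, at 3.60 and 0.70 CPM. The part of the fibroblast markers in the values below was not tested.

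Messages of the 78 genes together took a slightly larger part of the CX-5461 library. They summed to 8973 CPM (8945 to 9002) in control and to 10386 CPM (10360 to 10412) in CX-5461, a log2 ratio of 0.21 (0.205 to 0.217). Over the genes, the median log2 ratio was 0.28, with quartiles of 0.09 and 0.52. On UMIs outside cytosolic ribosomal protein and mitochondrially encoded genes, whose shares differed between the libraries, the sum had a log2 ratio of 0.15 and the median was 0.22. However, the median of all 11550 genes tested (at least 200 UMIs over both libraries) was itself 0.36, and with edgeR's TMM factor, which shifts every log2 ratio by -0.35, the median of the members was -0.07 and their sum -0.14. The direction of the group therefore depended on the scaling: higher per library total, slightly lower than the median gene.

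All 78 members passed the filter of 200 UMIs, with Mrps27 at the fewest (565 UMIs) and Mrpl42 at the most (39776). On library totals 64 of them (82.1%) were higher in CX-5461 and 14 lower, where 72.4% of all genes tested were higher. Against the median gene 33 members (42.3%) were higher, where 50% of all genes are by definition. For 27 members (34.6%) the counting interval lay wholly above the median gene and for 38 (48.7%) wholly below it, where 38.8% and 39.5% of all genes tested did so. Only 9 members (11.5%) stood at least 1.2-fold above the median gene, where 34.3% of all genes tested did, and 20 members (25.6%) stood at least 1.2-fold below it, where 33.2% did. These counts moved with the choice of cells and genes: thinning every cell to 5000 UMIs gave 18 above and 15 below, and a filter of 1000 UMIs gave 19 and 14, so that the balance between both directions was not stable. The members lay closer together than genes in general. Their quartiles were 0.43 apart, those of all genes tested 0.88 apart, and 66 of the 78 lay between the quartiles of all genes, where 50% of all genes lie by definition. The 0.88 includes genes of lower level, whose ratios spread more widely. The quartiles of other genes were 0.17 and 1.56 at 1.68 to 2.33 CPM. They were -0.16 and 0.57 at 72.3 to 117 CPM, and -0.23 and 0.47 at 117 to 251 CPM, where many members lie.

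**Figure D1:**
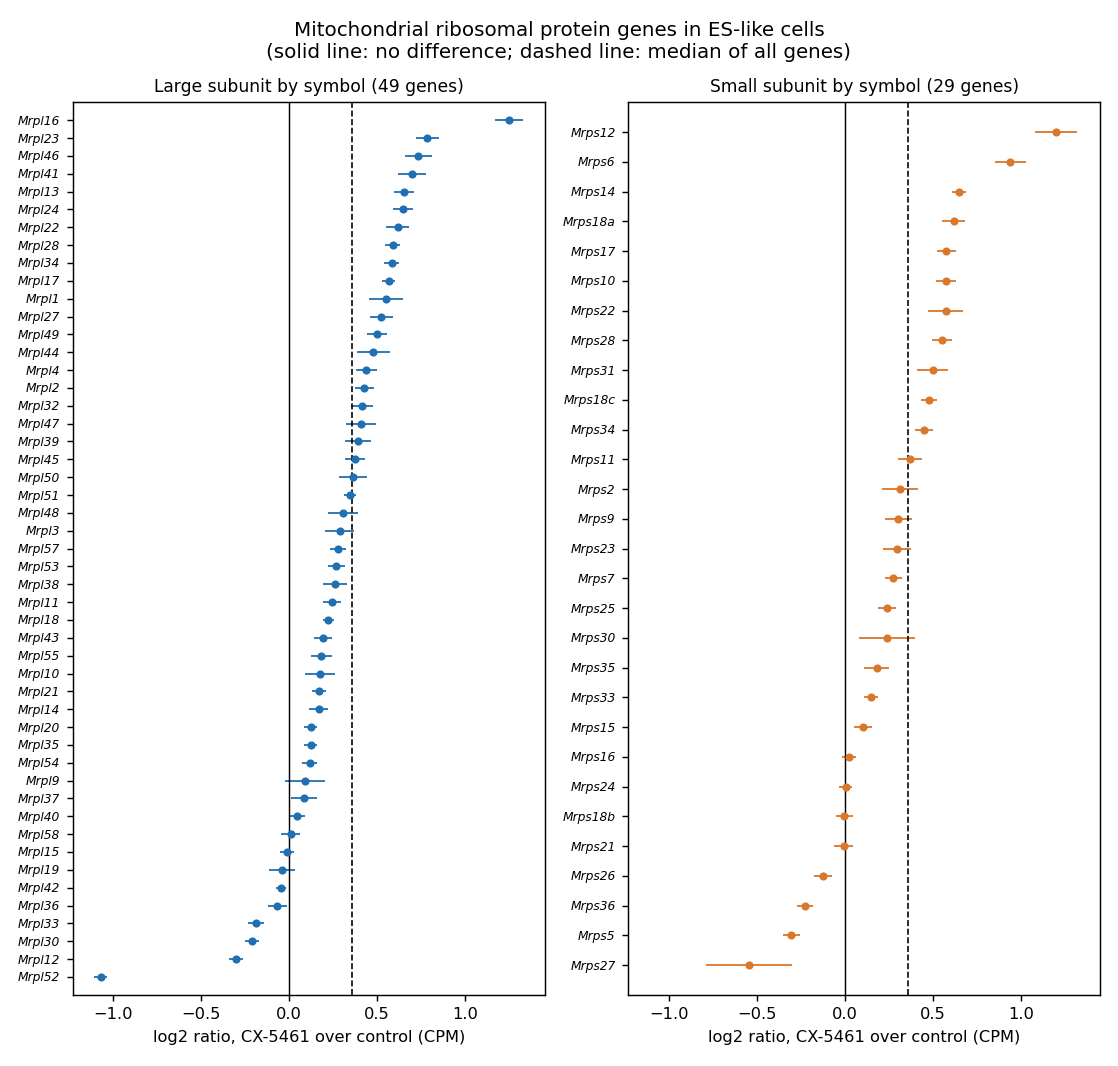
Log2 ratio of CX-5461 over control (x axis, from CPM in ES-like cells) for each of the 49 Mrpl genes (left) and 29 Mrps genes (right), with 95% counting intervals as bars, a solid line at 0 and a dashed line at the median of all genes tested (0.36). Of the 78 genes 64 lie above 0, and Mrpl16 and Mrps12 lie above 1 while Mrpl52 lies below -1.

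Highly expressed genes had lower ratios in general, so each member was also set beside genes of similar level. All other genes tested were divided into 20 bins of equal size by mean CPM, and 75 of the 78 members fell into the 6 highest bins. The 7919 genes tested within the members' range of levels (5.76 to 393 CPM) had a median log2 ratio of 0.31. Of them 29.7% stood at least 1.2-fold above the median gene and 34.9% at least 1.2-fold below it, 46.7% were above it by any amount, and the counting interval lay wholly above it in 37.5% and wholly below it in 44.4%. Of the members, 52 were above the median of their own bin, and the median difference from it was 0.12 on the log2 scale. In the 19th bin (117 to 251 CPM), which held 29 members, the members' median was 0.15 and that of the other genes 0.13. In the 18th bin (72.3 to 117 CPM), with 19 members, the medians were 0.44 and 0.22.

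**Figure D2:**
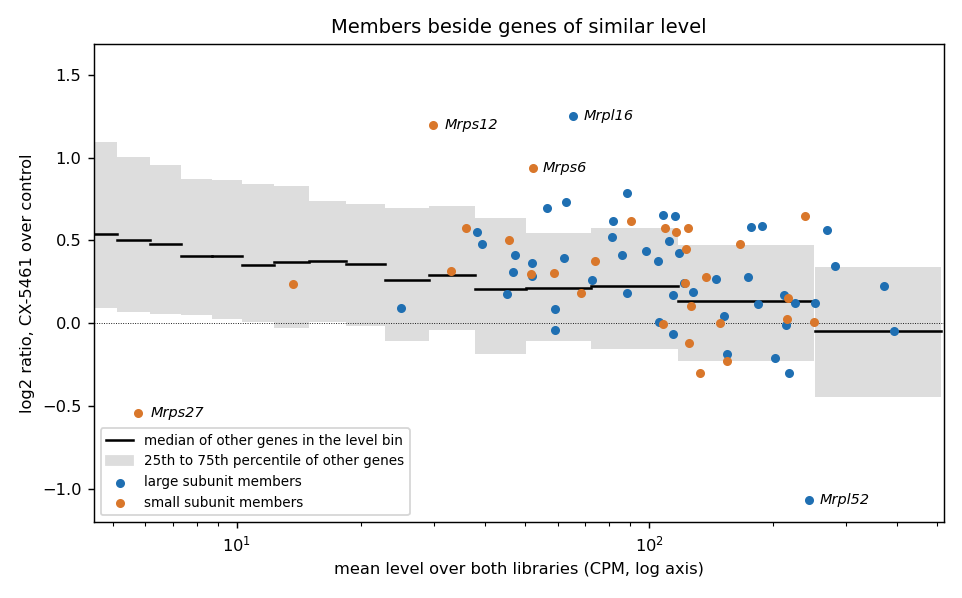
Log2 ratio of CX-5461 over control (y axis) against mean level over both libraries (x axis, CPM, log scale) for the members, blue for large and orange for small subunit, beside the median (black steps) and quartiles (grey) of other genes in bins of level. The black steps descend from 0.50 in the lowest bin with a member (that of Mrps27) to -0.05 in the highest, and 52 of the 78 members lie above them.

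Messages for both subunits were set side by side. The median log2 ratio was 0.28 for the large subunit (quartiles 0.115 and 0.50) and 0.30 for the small subunit (quartiles 0.02 and 0.55), a difference of -0.02. The large subunit summed to 6066 CPM in control and 6945 CPM in CX-5461 (log2 ratio 0.195, 0.188 to 0.202), and the small subunit to 2907 and 3441 CPM (log2 ratio 0.24, 0.233 to 0.254). The intervals of the sums did not overlap, but without Mrpl52 the sum of the large subunit was at 0.24 (0.236 to 0.250). The difference of the medians ranged from -0.08 after thinning to 0.03 as a mean over cells. The large subunit held 6 of the 9 members past 1.2-fold above the median gene and 12 of the 20 below. It held 49 of all 78 members, so these counts lay near its share of the members. Structures of the mammalian ribosome place Mrps30 and Mrps18a in the large subunit and leave out Mrps36, and with this assignment the medians were 0.28 for 51 and 0.30 for 26 genes. The 44 members with a bacterial counterpart had a median of 0.31, and the 29 found only in mitochondria a median of 0.27, with 5 left unassigned (0.18). The sums of the former 2 groups stood further apart, at 0.26 (0.255 to 0.271) and 0.13 (0.117 to 0.137), but without Mrpl52 the latter was 0.22 (0.210 to 0.230).

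The highest ratio belonged to Mrpl16, the large subunit protein of the uL16 family, which sits near the site where aminoacyl-tRNA is accommodated. Its gene lies at chr19:11770391-11774960 on the plus strand of GRCm38 and overlaps no other annotated gene. It was counted at 38.7 CPM (36.8 to 40.7) in control and 92.0 CPM (89.6 to 94.5) in CX-5461, a 2.38-fold difference (log2 ratio 1.25, 1.17 to 1.33). It was seen in 45.6% of control and 71.6% of CX-5461 cells. Of the other genes in its bin of level, 91.8% had a lower ratio. Mrpl16 and Mrps12 were the 2 members (2.56%) that reached 2-fold on library totals, which 19.5% of all genes tested did.

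Mrps12 encodes the small subunit protein of the uS12 family at the decoding centre. It stood at 18.1 CPM (16.9 to 19.5) in control and 41.6 CPM (39.9 to 43.2) in CX-5461, a 2.29-fold difference (log2 ratio 1.197, 1.079 to 1.32). The gene (chr7:28739641-28741820, minus strand) starts 172 bp from Sars2, the mitochondrial seryl-tRNA synthetase gene, which is transcribed in the opposite direction. Sars2 was counted at 15.3 CPM in control and 15.7 CPM in CX-5461, a log2 ratio of 0.03 (-0.11 to 0.18). The counting intervals of the pair did not overlap. Among cells of 10000 to 15000 UMIs, however, Sars2 lay 0.06 above the median gene on the log2 scale in place of 0.33 below. Fibroblast-like feeder cells held more Mrps12 than ES-like cells, at 115 CPM (control) and 113 CPM (CX-5461), and with barcodes of every class included its ratio over the median gene dropped from 0.84 to 0.40.

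At the other end, Mrpl52, a large subunit protein with no bacterial counterpart, was the 1 member that stood at less than 0.5 of its control level. It was counted at 330 CPM (325 to 336) in control and 157 CPM (154 to 160) in CX-5461, a log2 ratio of -1.07 (-1.11 to -1.03). At least 1 UMI of it was seen in 98.5% of control and 86.4% of CX-5461 cells. The gene lies at chr14:54426909-54429756 on the plus strand and overlaps no annotated gene.

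The sequences before the starts of these 3 genes are shown because their ratios stood furthest from the rest. Each is the 150 bases upstream of the RefSeq start on GRCm38.p6, written 5′ to 3′ on the strand of the gene. Capitals mark matches, on either strand, to the letters TATAAA for the TATA box, CCAAT for the box of that name or CCGGAAG for ETS factors, to which GABPA belongs. The RefSeq start of Mrpl16 lies 24 bases downstream of the GENCODE start.
Mrpl16, chr19:11770265-11770414, plus strand: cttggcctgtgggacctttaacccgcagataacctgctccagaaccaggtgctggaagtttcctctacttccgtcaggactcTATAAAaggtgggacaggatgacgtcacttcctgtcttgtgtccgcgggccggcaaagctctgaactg
Mrps12, chr7:28741822-28741971, minus strand: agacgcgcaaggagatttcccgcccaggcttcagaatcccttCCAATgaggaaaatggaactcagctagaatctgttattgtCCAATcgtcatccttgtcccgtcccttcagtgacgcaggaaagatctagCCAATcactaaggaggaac
Mrpl52, chr14:54426759-54426908, plus strand: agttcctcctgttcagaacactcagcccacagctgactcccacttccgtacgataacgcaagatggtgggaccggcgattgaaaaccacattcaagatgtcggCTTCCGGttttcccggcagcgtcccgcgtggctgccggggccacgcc
Within these stretches, Mrpl16 has a TATAAA match that begins at -68 from the RefSeq start. Whether it acts as a TATA box was not tested. Mrps12 has 3 CCAAT matches and Mrpl52 has an ETS match. In the longer window searched below, Mrps12 has ETS and YY1 matches as well.

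Genes for mitochondrial proteins are known to be regulated by NRF1, GABPA and YY1, so promoters of the members were searched for their short motifs. RefSeq promoters (250 bases before to 50 after the start) were found for 69 of the 78 members. The ETS motif CCGGAAG was in 34.8% of the members' promoters, in 8.86% of all 32851 promoters of this length and in 20.5% of those of genes tested. The YY1 motif AAGATGGC was in 17.4% of the members' promoters, in 2.75% of all and in 5.43% of those of genes tested. For the NRF1 motif GCATGCGC the shares were 11.6%, 2.71% and 6.07%. The CCAAT box was about as frequent in members (39.1%) as in all promoters (37.4%) and in those of genes tested (40.0%). TATAAA was in 5.80% of the members' promoters, in 13.6% of all and in 6.64% of those of genes tested. All motifs were searched on both strands, and none is contained in another. The medians of the log2 ratio were 0.27 with and 0.31 without the ETS motif, 0.28 and 0.29 for NRF1, and 0.20 and 0.30 for YY1. The 4 members with TATAAA were Mrpl16 (1.25), Mrpl46 (0.73), Mrps17 (0.58) and Mrps24 (0.01), and the RefSeq starts of Mrpl46 and Mrps24 lie 442 and 7979 bases from the GENCODE starts.

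Other members with high ratios included small subunit proteins of bacterial descent. Mrps6, of the bS6 family, was at 35.7 CPM (33.9 to 37.6) in control and 68.5 CPM (66.5 to 70.7) in CX-5461, a log2 ratio of 0.94 (0.85 to 1.03). It shares its locus on chromosome 16 with Slc5a3, annotated on the same strand. Mrps14, of the uS14 family, was at 186 and 292 CPM, a log2 ratio of 0.65 (0.61 to 0.69), and was seen in 91.8% and 96.8% of cells. Mrps6 and Mrps14 were both higher in CX-5461 than in control by more than the median gene.

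Among large subunit proteins, Mrpl23, of the uL23 family at the mouth of the exit tunnel, was at 64.8 CPM in control and 112 CPM in CX-5461 (log2 ratio 0.78, 0.72 to 0.85). A row annotated as its pseudogene, Mrpl23-ps1, was counted at 39.0 and 52.5 CPM, so that reads of the copies may have been split. Mrpl13, of the uL13 family, was at 84.1 and 132 CPM (log2 ratio 0.65, 0.60 to 0.71). Mrpl41 and Mrpl46, both without a bacterial counterpart, had log2 ratios of 0.70 (0.62 to 0.78) and 0.73 (0.65 to 0.81). Mrpl46 starts 412 bp from another member, Mrps11, on the opposite strand, whose log2 ratio was 0.37. The annotated genes overlap, and whether counting used strand is not given in the sources used here.

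Mrps18a, Mrps18b and Mrps18c are 3 relatives of the single bacterial protein bS18, and the first of them is built into the large subunit. Mrps18a was at 71.4 CPM in control and 110 CPM in CX-5461 (log2 ratio 0.62, 0.55 to 0.68). Mrps18c was at 139 and 194 CPM (log2 ratio 0.48, 0.43 to 0.53). Mrps18b was at 149 and 148 CPM (log2 ratio -0.003, -0.05 to 0.04). The counting intervals of these 3 ratios did not overlap. Mrps30, likewise a large subunit protein in spite of its symbol, was at 12.5 and 14.8 CPM (log2 ratio 0.24, 0.08 to 0.40).

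The stalk of the large subunit recruits translation factors and is built from Mrpl12 on its anchor Mrpl10, next to Mrpl11. Mrpl12 was at 241 CPM (236 to 246) in control and 195 CPM (192 to 199) in CX-5461, a log2 ratio of -0.30 (-0.34 to -0.26). Mrpl10 was at 42.3 and 47.8 CPM (log2 ratio 0.17, 0.09 to 0.26) and Mrpl11 at 111 and 131 CPM (log2 ratio 0.24, 0.19 to 0.30). On library totals Mrpl12 was thus lower and Mrpl10 and Mrpl11 higher, and all 3 were below the median gene.

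Other members at the lower end were Mrps27, Mrps5, Mrps36, Mrpl30, Mrpl33 and Mrps26. Mrps27, which carries RNA-binding pentatricopeptide repeats, was the least counted member, at 6.84 CPM (6.07 to 7.68) in control and 4.68 CPM (4.15 to 5.26) in CX-5461, and its interval was the widest (log2 ratio -0.55, -0.79 to -0.30). After thinning it lay at -0.53 against the median gene on the log2 scale, in place of -0.90. Mrps5, of the uS5 family, was at 147 and 119 CPM (log2 ratio -0.30, -0.35 to -0.25). Mrps36, which is known as a component of the 2-oxoglutarate dehydrogenase complex and not of the ribosome, was at 166 and 142 CPM (log2 ratio -0.23, -0.27 to -0.18). Pseudogene copies of Mrps36 were counted as well, at 10.9 and 7.21 CPM for Mrps36-ps1. Mrpl30, Mrpl33 and Mrps26 had log2 ratios of -0.21, -0.19 and -0.12.

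The members with the most UMIs in each subunit (counts not divided by length) spread over both sides of the median gene. Mrpl42 had 399 CPM in control and 386 CPM in CX-5461 (log2 ratio -0.05), and Mrpl18 had 342 and 399 CPM (0.22). Mrpl51 was at 249.2 and 316 CPM (0.34), close to the median gene, and Mrpl17 at 218 and 323 CPM (0.56), above it. Of the small subunit, Mrps14, described above, had a log2 ratio of 0.65, above the median gene, while Mrps24 was at 251 and 252 CPM, Mrps33 at 206 and 229 CPM and Mrps16 at 215 and 218 CPM. The log2 ratios of the latter 3, at 0.01, 0.15 and 0.02, lay below the median gene. Mrpl18 overlaps Tcp1 (29455 UMIs) on the opposite strand. Altogether 42 members overlap another annotated gene, 36 of them on the opposite strand.

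Some members have further activities. Mrpl58, a peptidyl-tRNA hydrolase that frees stalled ribosomes, was at 105 and 106 CPM (log2 ratio 0.01, -0.05 to 0.06). Mrpl44, which resembles ribonuclease III, was at 32.8 and 45.6 CPM (0.48, 0.38 to 0.57). Mrpl45, which holds the ribosome at the inner membrane, was at 91.4 and 119 CPM (0.38, 0.32 to 0.43).

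The share of the members was also taken per cell. It rests on the same UMIs and the same scaling by totals as the sum, so it adds no separate evidence for the direction. Against the median gene the group was slightly lower, as given above. Cells of 1 library are not replicates. A control cell had a median of 0.893% of its UMIs on the members (quartiles 0.812% and 0.977%) and a CX-5461 cell 1.03% (quartiles 0.945% and 1.11%). After thinning each cell to 5000 UMIs the medians were 0.880% and 1.02%, with 30 and 34 different members seen per cell. The share was higher in CX-5461 at every depth: 0.861% against 0.949% in cells of 5000 to 10000 UMIs, 0.883% against 1.00% in those of 10000 to 15000, 0.891% against 1.05% in those of 15000 to 20000, and 0.909% against 1.081% in those of 20000 or more. The thinned sum per cell had a variance of 1.497 times its mean in control and 1.43 times in CX-5461, where Poisson counting alone gives 1. Large subunit genes gave 67.6% of member UMIs in control and 66.9% in CX-5461.

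**Figure D3:**
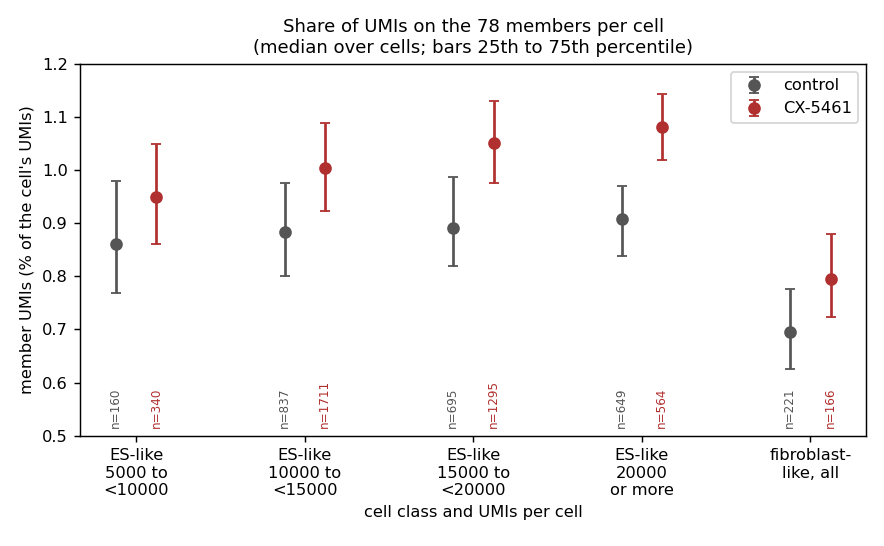
Percentage of a cell's UMIs on the 78 members (y axis, which starts at 0.5) by class and UMIs per cell (x axis) for control (grey) and CX-5461 (red), as the median over cells with quartiles as bars and the number of cells below. CX-5461 lies above control in each range of depth, and fibroblast-like cells lie lower, at 0.695% and 0.794%.

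Other classes of cells had lower median shares than the ES-like cells used of the same library. ES-like CX-5461 cells outside the limits on depth and mitochondrial share, whose median mitochondrial share was 15.7%, had 0.791%, and an unnamed control cluster of shallow cells (median 2361 UMIs) had 0.710%. 2C-like cells had 0.984% in CX-5461 (105 cells) and 0.761% in control (12 cells). Within the CX-5461 library, cluster c7 had 1.04% and cluster c8 0.975%, while the control clusters c0, c1 and c3 had 0.896%, 0.889% and 0.889%.

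Clusters of at least 50 cells were also compared, which left out c9. Of the 78 members, 51 were higher in c7 and c8 than in any control cluster, where 53.8% of all genes tested were, 6 were lower, where 17.9% were, and 21 overlapped. Mrpl16 ranged from 36.6 to 41.7 CPM over the control clusters and was at 87.4 CPM in c7 and 110 CPM in c8. Mrps12 ranged from 16.01 to 18.7 CPM in control and was higher in c7 (43.9 CPM) than in c8 (32.4 CPM). Mrpl52 ranged from 322 to 334 CPM in control and was at 162 and 138 CPM. The other 5 that were lower in both were Mrpl12, Mrpl30, Mrpl33, Mrps36 and Mrps5.

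**Figure D4:**
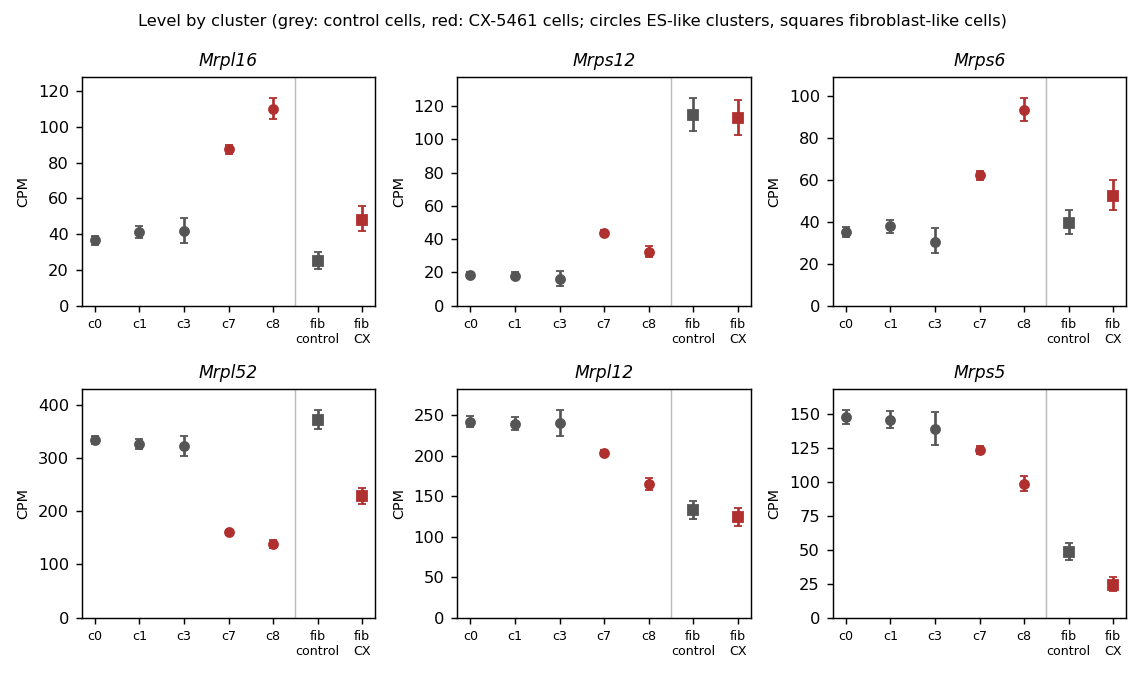
Level in CPM (y axis, 1 panel per gene) of 6 members in the ES-like clusters of control (c0, c1, c3) and CX-5461 (c7, c8) and in fibroblast-like cells (fib) of each library, with 95% counting intervals. Control clusters lie close together for each gene, and both CX-5461 clusters lie above them for Mrpl16, Mrps12 and Mrps6 and below them for Mrpl52, Mrpl12 and Mrps5.

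Feeder cells of the same cultures gave a second view of the members. In 221 control and 166 CX-5461 fibroblast-like cells the members summed to 6968 and 7924 CPM, a log2 ratio of 0.19 (0.16 to 0.21), where the median of 3936 genes was 0.16. The median over the 65 members with at least 200 UMIs there was 0.24. Mrpl16 had a log2 ratio of 0.93 (0.59 to 1.28) in these cells and Mrpl52 one of -0.70 (-0.82 to -0.58). For Mrps12, in contrast, the log2 ratio was -0.02 (-0.21 to 0.16), against 1.197 in ES-like cells. The difference between the cell classes was not tested.

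Not every protein of the mitochondrial ribosome has an Mrp symbol. Of 5 such genes, Aurkaip1, Dap3, Ptcd3, Chchd1 and Gadd45gip1, none was above the median gene, and their median log2 ratio was 0.12. Beside genes of similar level, 1 of the 5 was above the median of its bin. Aurkaip1 was at 270 and 339 CPM (0.33) and Gadd45gip1 at 125 and 109 CPM (-0.20). The rRNAs of the same ribosome were counted at 128 and 243 CPM for mt-Rnr2 and at 25.04 and 32.5 CPM for mt-Rnr1, in libraries that capture polyadenylated RNA. The mitochondrially encoded protein genes, the messages this ribosome translates, summed to 19636 CPM in control and 39991 CPM in CX-5461. They did not move together. On library totals 9 of these 13 genes were higher and 4 lower, where 72.4% of all genes tested were higher. Their log2 ratios ran from -1.02 to 1.42. In contrast, the 77 cytosolic ribosomal protein genes summed to 288886 and 236131 CPM, with a median log2 ratio of -0.26. Of them 60 stood at least 1.2-fold below the median gene, where 33.2% of all genes tested did. Of the members 20 stood that far below. Level plays into these counts, since the highest bin (252 to 7832 CPM) had itself a median log2 ratio of -0.05. Beside genes of similar level, 23 of the 77 were above the median of their bin, with a median difference of -0.26. Of the 78 members 52 were above theirs.

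Factors that assemble the mitochondrial ribosome (27 genes) had a median log2 ratio of 0.14, with 6 at least 1.2-fold above the median gene and 13 at least 1.2-fold below. For these and the lists that follow, 34.3% of all genes tested stood that far above and 33.2% that far below. Beside genes of similar level, 8 of the 27 were above the median of their bin, with a median difference of -0.29. Dhx30, a helicase, was at 4.01 and 10.5 CPM (1.39, 1.14 to 1.64), but only 0.57 above the median gene after thinning in place of 1.03, Mtg1, a GTPase, at 10.2 and 18.3 CPM (0.84), Fastkd2 at 17.2 and 13.3 CPM (-0.37) and Ptcd1 at 4.83 and 3.77 CPM (-0.36). For translation factors the median difference from genes of similar level was -0.01, with 5 above the median of their bin. The 13 translation factors tested of 14 had a median of 0.36, with 3 above and 3 below by 1.2-fold. They included Taco1, an activator of mitochondrial translation (1.09), the initiation factor Mtif2 (0.88), the elongation factor Tufm at 52.5 and 60.5 CPM (0.21, 0.13 to 0.28), the release factor Mtrf1 (0.07) and the recycling factor Mrrf (-0.03).

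The 20 genes for mitochondrial aminoacyl-tRNA formation had a median of 0.34. Of them 6 were above and 2 below by 1.2-fold, where 34.3% and 33.2% of all genes tested were. Beside genes of similar level, 7 of the 20 were above the median of their bin, with a median difference of -0.12. Gatb, a subunit of the glutaminyl-tRNA amidotransferase, was at 4.47 and 18.9 CPM (2.08, 1.85 to 2.31), Fars2 at 9.38 and 20.7 CPM (1.14) and Iars2 at 9.52 and 8.27 CPM (-0.20). Of 19 genes for replication, transcription and processing of mitochondrial nucleic acids, 17 were tested, with a median of 0.39, 4 above and 5 below by 1.2-fold. Of these 17, 11 were above the median of their bin of level, with a median difference of 0.10. The RNase P subunit 1110008L16Rik (Prorp) was at 40.2 and 142 CPM (1.82, 1.74 to 1.90) and the transcription termination factor family member Mterf2 at 2.92 and 5.48 CPM (0.91). The polymerase Polrmt was at 3.92 and 6.94 CPM (0.83, 0.56 to 1.097) and its partner Tfam at 51.9 and 68.1 CPM (0.39). The RNA-binding protein Slirp was at 268 and 180.0 CPM (-0.58) and the helicase Twnk at 18.0 and 12.6 CPM (-0.51).

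The 23 import genes, whose products carry the members into the organelle, had a median of 0.15. Of them 2 were above and 10 below by 1.2-fold, where 34.3% and 33.2% of all genes tested were. Beside genes of similar level, however, 12 of the 23 were above the median of their bin, with a median difference of 0.03. Tomm7, a small part of the outer membrane channel, was at 525 and 283 CPM (-0.89, -0.92 to -0.87) and the inner membrane channel Timm23 at 486 and 372 CPM (-0.39). Its partner Timm17a was at 219 and 354 CPM (0.70), and the processing peptidase Pmpca at 31.7 and 53.9 CPM (0.77). Of 11 regulators of nuclear genes for mitochondria, 10 were tested, with a median of 0.11, 1 above and 5 below by 1.2-fold. Of these 10, 2 were above the median of their bin of level, with a median difference of -0.25. Nrf1 was at 38.5 and 26.2 CPM (-0.56, -0.66 to -0.45) and Gabpa at 17.3 and 16.4 CPM (-0.08). Esrra was at 2.20 and 5.71 CPM (1.38). Myc was at 3.92 and 1.56 CPM (-1.33, -1.71 to -0.95) and Mycn at 22.0 and 32.3 CPM (0.55).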

How the data were processed

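The authors deposited UMI counts per gene and barcode, 1 table per condition, from 10x Genomics 3′ libraries, made with a published droplet pipeline on mm10 per the labels and used by them in Seurat 2.3.4. Counts the authors marked as shared between genes, deposited as sums, were added only as an alternative. The barcodes are running numbers, so barcodes shared by the libraries could not be counted. Barcodes that held 500 UMIs or more, with mitochondrial genes at 20% or less, were clustered without the members (scanpy 1.11.5, 2000 variable genes, 16 components, resolution 0.5), and clusters were named from markers. No doublet caller was run. UMIs were summed over cells and divided by library totals, with exact Poisson, conditional binomial and Clopper-Pearson intervals, checked on simulated data. TMM factors came from edgeR 4.0.16. Symbols (54079 of 54146 identifiers matched) and coordinates came from GENCODE for GRCm38, promoters from RefSeq.

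Named members were the 8 highest and 8 lowest ratios, the 4 of each subunit with the highest CPM and 12 of known role. Per pathway list the 2 highest and 2 lowest ratios were named, with 7 set genes. Ptcd3, the rRNAs, Mrps11 and Mrps17 were named beside them. Members and lists were chosen with earlier results of these data known. Depth-matched cells, totals without cytosolic ribosomal protein and mitochondrial genes, and members without Mrpl52 were alternatives chosen after seeing the data.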

Additional observations from a re-analysis of the deposited data

Results flagged for a closer look

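On library totals, 2 of the 65 members with at least 200 UMIs in fibroblast-like cells differed in direction between ES-like and fibroblast-like cells. Each had counting intervals on 1 side of 0. The difference was not tested, with 1 library per condition. Mrpl30 had a log2 ratio of -0.21 in ES-like and 0.12 (0.01 to 0.24) in fibroblast-like cells. The median gene stood at 0.36 in ES-like and 0.16 in fibroblast-like cells. Against it Mrpl30 was lower in both, although its interval in fibroblast-like cells spanned the median gene. Mrpl42 had -0.05 in ES-like and 0.48 (0.32 to 0.64) in fibroblast-like cells, and also lay on different sides of the median gene. Below that number of UMIs, Mrpl44 (65 UMIs in control and 35 in CX-5461) had -0.68 (-1.32 to -0.07) in fibroblast-like cells, against 0.48 in ES-like cells.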

How the results depend on the processing

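Scaling decided the direction of the group. With the TMM factor the sum of the members had a log2 ratio of -0.14 and their median one of -0.0682, and with the median gene set to 0 these were -0.15 and -0.0771. The same 2 scalings gave medians of -0.23 and -0.24 for mitoribosome genes of other symbols, -0.21 and -0.22 for assembly factors, 0.0102 and 0.00137 for translation factors, -0.0133 and -0.0222 for aminoacyl-tRNA genes, 0.0423 and 0.0334 for expression of mitochondrial DNA, -0.24 and -0.25 for regulators and -0.20 and -0.21 for import. The sum, whose counting error is small, was 0.20 as a mean over cells, 0.22 over barcodes of every class, 0.15 on UMIs outside cytosolic ribosomal protein and mitochondrial genes (median 0.22), 0.19 in cells of 10000 to 15000 UMIs and 0.24 without Mrpl52. The share per cell gave 0.26 over every class and 0.19 in cells of 10000 to 15000 UMIs. Members at least 1.2-fold above the median gene numbered 18 after thinning to 5000 UMIs, 5 with no low-count filter, 19 with a filter of 1000 UMIs and 15 in cells of 10000 to 15000 UMIs. A filter changes the genes that set the median. The filter of 200 UMIs was also applied anew to the thinned counts and to cells of 10000 to 15000 UMIs. Fewer UMIs were left there, so the genes that set the median could change as well. How much of these shifts came from that was not tested. The other 70 of 100 values moved by less than the error set for them, or by less than 1.5 times for counts. For medians over genes that error was based on the typical counting interval of 1 gene. It is not the error of the median itself, so small shifts of medians could pass unseen. Of 416 values of named members relative to the median gene, 103 moved beyond counting error and 8 lay on the other side of the median gene, all of Mrpl51, Mrps30 and Mrpl45, which stood less than 1.2-fold from it. Among pathway genes, Sars2 turned from -0.33 to 0.0613 in cells of 10000 to 15000 UMIs, and the cause was not tested.

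No paired analysis was possible because the barcodes carry no replicate number and each condition is 1 library, and for the same reason no replicate was left out.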
